A study of Mus musculus with 12 samples.

Results

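The 5 genes Lin28a, Lin28b, Zcchc11, Zcchc6 and Dis3l2 encode the proteins that hold back the let-7 microRNAs by blocking or destroying their precursors. They were found by exact gene name in the deposited expression tables, which hold 36883 rows each. All 5 had a row of their own in mRNA and in short RNA, and 4 had one in long RNA. There Zcchc11 shares its row with Gm12737, and the value of that joint row is given as such. The rows of 5 members in mRNA, 4 in long RNA and 2 in short RNA passed the filter on low values, which asked for a tested row with at least 1 FPKM (fragments per kilobase of transcript, scaled to sequencing depth) in at least 1 of the libraries compared.

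The libraries came from wild-type mouse embryonic stem (ES) cells and from Drosha-deficient ES cells, both kept in serum medium with leukemia inhibitory factor. ES cells are cultured cells of the early embryo, and Drosha is the nuclear enzyme that cuts microRNA hairpins out of their primary transcripts. Of 12 samples in the series, 6 RNA libraries were used, 1 per genotype and fraction, the 3 fractions being mRNA, long RNA and short RNA, so no difference given here has a replicate check. In a pair of values such as those of Drosha below, the wild-type value comes before the Drosha-deficient one. Of the methylation samples, which were not analysed here, the labels say that the wild type is the line AB1 and that the Drosha-deficient cells derive from it. The labels of the RNA samples name no line, and neither the allele nor the number of clones is given in the sources used here. No title says long RNA; that table was taken to be the total RNA libraries by elimination, since the other tables match the other titles.

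LIN28A and LIN28B are RNA-binding proteins with a cold shock domain and a pair of zinc knuckles. They grip the terminal loop of let-7 precursors, where the zinc knuckles recognise the motif GGAG. LIN28A then recruits the terminal uridylyltransferases ZCCHC11 (also TUT4) and ZCCHC6 (also TUT7), which add a tail of uridines that keeps Dicer from cutting the precursor, and DIS3L2 is the exonuclease that degrades the tailed RNA. LIN28B is known in human cells also to hold primary let-7 transcripts in the nucleus. The loop runs both ways, since mature let-7 represses the Lin28 mRNAs, and in ES cells the LIN28 side prevails, so that let-7 hosts are transcribed while mature let-7 stays low.

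The RNA on which these proteins act is shown by the 4 let-7 hairpins that had a short RNA row of their own, because they include both kinds, with and without the motif. Sequences are those of RefSeq for GRCm38.p6, written from the 5′ end, with GGAG in capitals.
Mirlet7i (chr10:122985640-122985724, minus strand): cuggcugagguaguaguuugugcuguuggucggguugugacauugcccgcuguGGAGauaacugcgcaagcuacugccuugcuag
Mirlet7a-1 (chr13:48538179-48538272, minus strand): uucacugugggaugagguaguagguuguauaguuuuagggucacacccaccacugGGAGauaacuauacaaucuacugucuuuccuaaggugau
Mirlet7b (chr15:85707319-85707403, plus strand): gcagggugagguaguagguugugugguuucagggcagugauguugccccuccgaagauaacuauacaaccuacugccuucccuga
Mirlet7c-2 (chr15:85706603-85706697, plus strand): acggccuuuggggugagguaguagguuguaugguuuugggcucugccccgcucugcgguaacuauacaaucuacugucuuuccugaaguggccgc

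Of 12 let-7 family hairpins in the RefSeq table, 9 held GGAG, against 44.5% of all 1005 hairpins in that table. Of the 11 with both arms annotated, 8 held it between the arms, as Mirlet7i and Mirlet7a-1 do, while Mirlet7b and Mirlet7c-2 have no GGAG anywhere. A match of these letters is a description and not a binding site. The mature microRNAs from the 5′ arm are shown because they share their seed, bases 2 to 8, which is in capitals.
let-7i-5p: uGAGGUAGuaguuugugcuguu
let-7a-5p: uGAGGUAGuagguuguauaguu
let-7b-5p: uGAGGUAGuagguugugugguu
let-7c-5p: uGAGGUAGuagguuguaugguu
All 11 annotated 5′ mature entries of the family have this 1 seed, in 9 distinct mature sequences.

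Drosha itself, the targeted gene, had 42.1 against 6.22 FPKM in mRNA (wild type against Drosha-deficient) and 21.2 against 4.34 FPKM in long RNA, which matches the labels. By estimate 1 fragment on 1 kb of transcript gave 0.0411 to 0.0543 FPKM in the libraries of mRNA and long RNA, and 0.337 to 0.378 FPKM in those of short RNA, which were several times shallower. The ES cell marker Pou5f1 had 562 against 700 FPKM in mRNA, and Nanog had 192 against 207 FPKM. Of 10 ES cell markers all were measured in mRNA, of which 1 was called higher, Sall4, and none lower. Calls aside, 6 of them had the higher value in Drosha-deficient mRNA and 4 the lower, such as Dppa5a at 732 against 599 FPKM. In long RNA none of 9 measured ES cell markers was called, and 3 had the higher value in Drosha-deficient cells and 6 the lower. The largest of these differences was that of Klf4, at 10.6 against 5.30 FPKM. Most measured fibroblast markers had lower values in Drosha-deficient cells, and primed epiblast and neural markers had higher ones. A row was called when FPKM + 1 differed by at least 2-fold. Of 13 fibroblast markers 11 were measured in mRNA, of which 6 were called lower and none higher. The measured marker that went the other way was Twist1, at 1.68 against 3.56 FPKM in mRNA and 1.29 against 2.84 FPKM in long RNA. The summed level of all 13 was 552 against 290 FPKM, single markers running from 0 (Lum) to 209 FPKM in wild-type and from 0.0147 to 179 FPKM in Drosha-deficient mRNA. Of 8 primed epiblast and neural markers 7 were called higher and none lower in mRNA, with sums of 68.5 against 225 FPKM and single values of 0.209 to 39.0 and 1.64 to 94.8 FPKM. In long RNA 7 of 11 measured fibroblast markers were called lower (sums of 313 against 152 FPKM) and 3 of 7 epiblast and neural markers higher (60.1 against 143 FPKM). Of 6 endoderm markers only Gata4 passed the filter in mRNA. The part of these shifts in the results below was not tested. In such bulk samples fewer cells of a type and less RNA per cell cannot be told apart.

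None of the 5 genes was called between the genotypes in any fraction. In mRNA 2 of them, Lin28b and Zcchc11, had Drosha-deficient values more than 1.5 times the wild-type values, and Lin28a and Dis3l2 had nearly equal values. In long RNA Lin28a had the largest difference of the group, in the other direction. Over all 14752 rows measured in mRNA, 8.64% were called higher and 7.93% lower in Drosha-deficient cells. In long RNA the shares of 13933 rows were 6.26% and 6.89%, and in short RNA those of 2597 rows were 14.8% and 18.4%. Beside these shares a count of 0 among 5, 4 or 2 measured members is near the background and no result about the members.

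**Figure D1:**
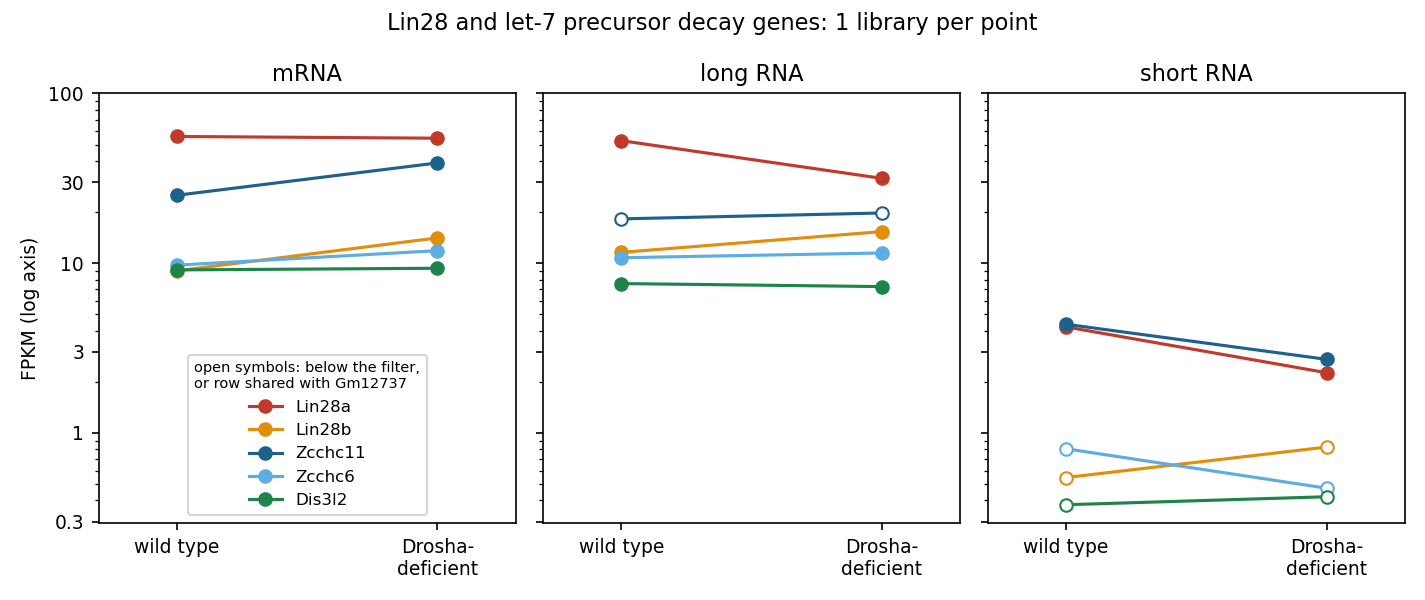
Level of each member (FPKM, log axis) in the wild-type and the Drosha-deficient library of each fraction, 1 library per point, with a line joining both values of a gene. Lin28a is the highest member in mRNA and long RNA; its line is level in mRNA (55.8 against 54.5 FPKM) and slopes down in long RNA (52.7 against 31.6 FPKM).

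Lin28a (chromosome 4, 134003330 to 134019869, mm10/GRCm38, protein-coding) was the most abundant of the 5 in mRNA and long RNA. In mRNA it stood at 55.8 FPKM in wild-type and 54.5 FPKM in Drosha-deficient cells, a log2 difference of -0.03. These values are nearly the same, and 96.1% of all measured rows had a difference of larger size. In long RNA it stood at 52.7 against 31.6 FPKM, so that the wild-type value was 1.67 times the Drosha-deficient one, with a log2 difference of -0.72. That lies inside the central span of all rows there, whose 10th and 90th percentiles were -0.84 and 0.73, and 23.0% of rows had a difference of larger size. By the depth estimate the long RNA values rest on about 971 and 692 fragments per 1 kb of transcript. Its short RNA row, which reads fragments of the transcript and no microRNA, had 4.21 against 2.26 FPKM, about 11.1 and 6.72 fragments per kb, and there Zcchc11 was slightly above it in both libraries.

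Lin28b (chromosome 10, 45376620 to 45470201, protein-coding), the paralog, was several times less abundant. In mRNA it stood at 9.02 against 14.1 FPKM, so that the Drosha-deficient value was 1.56 times the wild-type value (log2 difference 0.59). In long RNA it stood at 11.6 against 15.4 FPKM, 1.33 times (log2 difference 0.38). The Drosha-deficient library had the higher value in both fractions, and 18.7% of rows in mRNA and 21.2% in long RNA had a higher difference. In short RNA its row had 0.545 against 0.825 FPKM and did not pass the filter.

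The balance of the LIN28 paralogs can be read within each library, since FPKM is a level per length. In mRNA the level of Lin28a was 6.19 times that of Lin28b in wild-type and 3.87 times in Drosha-deficient cells. In long RNA the ratio was 4.55 in wild-type and 2.06 in Drosha-deficient cells. The ratio was thus lower in the Drosha-deficient library of both fractions, in mRNA mainly with a higher Lin28b value and in long RNA mainly with a lower Lin28a value. The summed level of both genes was 64.8 against 68.6 FPKM in mRNA and 64.3 against 47.0 FPKM in long RNA.

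Zcchc11 (chromosome 4, 108459426 to 108559421, protein-coding; Tut4 in RefSeq) was the more abundant of the uridylyltransferases. In mRNA it stood at 25.1 against 39.0 FPKM, so that the Drosha-deficient value was 1.55 times the wild-type value (log2 difference 0.61), and 18.0% of all rows had a higher difference. In long RNA the row shared with Gm12737 had 18.2 against 19.8 FPKM (log2 difference 0.11), and how many of its reads belong to Gm12737 is not known. In short RNA Zcchc11 had 4.37 against 2.71 FPKM (log2 difference -0.53), resting on about 11.5 and 8.05 fragments per kb, so the direction was opposite to that in mRNA at a depth that gives little precision.

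Zcchc6 (chromosome 13, 59769965 to 59823147, protein-coding; Tut7 in RefSeq) stood at 9.74 against 11.8 FPKM in mRNA (log2 difference 0.26) and at 10.8 against 11.5 FPKM in long RNA (0.09). The Drosha-deficient value was slightly the higher in both, and 69.9% and 86.3% of rows had a difference of larger size. Its short RNA row had 0.806 against 0.472 FPKM and did not pass the filter. The level of Zcchc11 was 2.58 times that of Zcchc6 in wild-type and 3.29 times in Drosha-deficient mRNA, and the summed level of both was 34.9 against 50.8 FPKM. In long RNA, with the joint row, the ratio was 1.69 and 1.72.

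Dis3l2 (chromosome 1, 86703808 to 87057596, protein-coding), the exonuclease at the end of the pathway, was the most even member. It stood at 9.13 against 9.33 FPKM in mRNA (log2 difference 0.03) and at 7.58 against 7.28 FPKM in long RNA (-0.05), and 96.5% and 91.7% of rows had a difference of larger size. Its short RNA row had 0.377 against 0.420 FPKM and did not pass the filter. The row of Dis3l2 overlaps that of the pseudogene Gm6136, which was called higher in both fractions, at 49.1 against 106 FPKM in mRNA and at 22.1 against 53.4 FPKM in long RNA. How the authors' counting parted reads between these rows is not known. Measured rows overlapped none of the other members in mRNA.

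**Figure D2:**
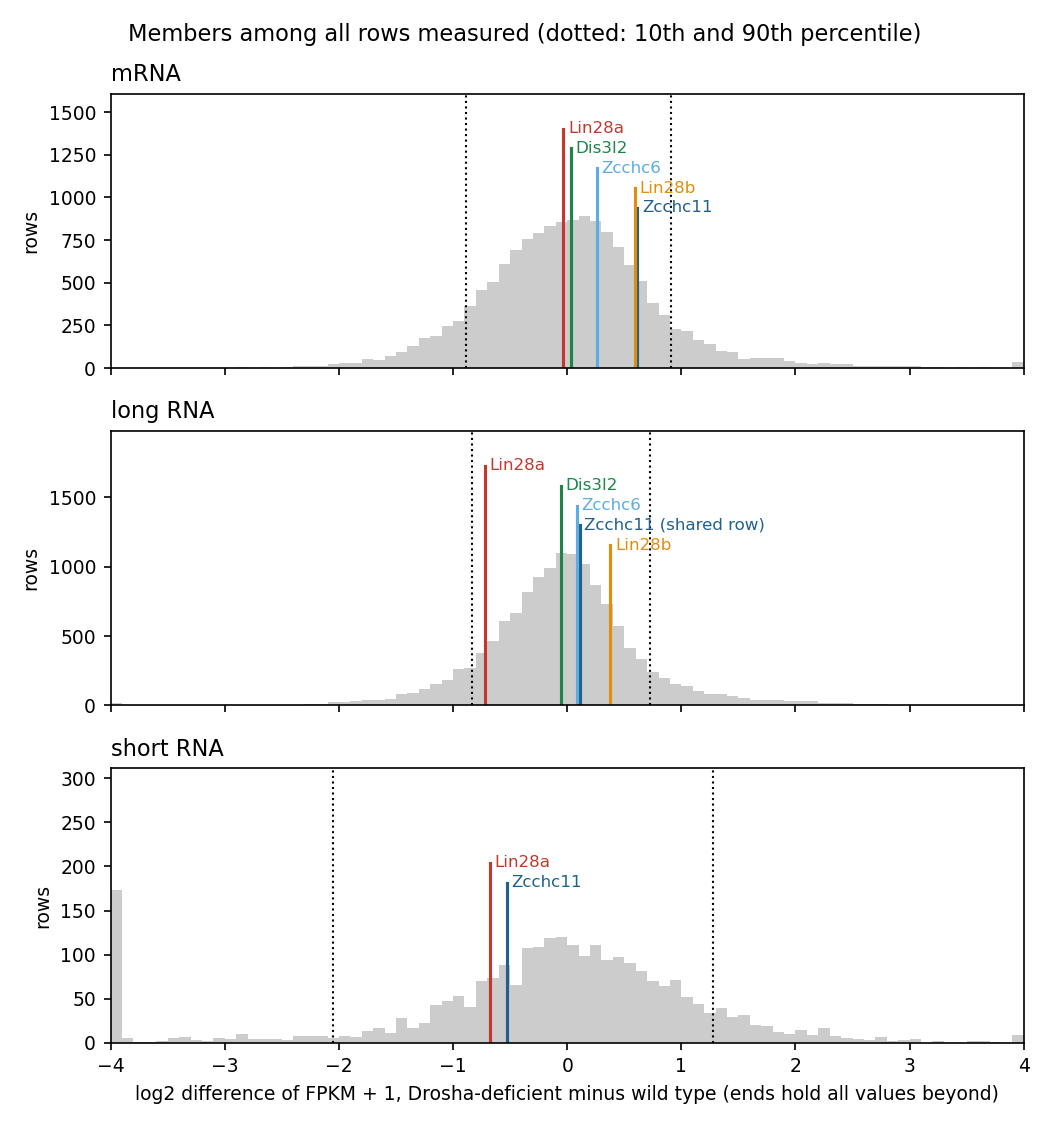
Number of rows (y axis) by log2 difference of FPKM + 1, Drosha-deficient minus wild type (x axis), for all rows measured in each fraction, with the members as coloured lines and the 10th and 90th percentiles dotted. Every member shown lies between the dotted lines; Lin28a in long RNA (-0.72) and Zcchc11 in mRNA (0.61) come nearest to them.

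The order of the levels was Lin28a, then Zcchc11, in all 4 libraries of mRNA and long RNA, where the long RNA value of Zcchc11 is that of the row shared with Gm12737. In wild-type mRNA the other genes were all but level, with Zcchc6 at 1.07 times Dis3l2 and Dis3l2 at 1.01 times Lin28b. In Drosha-deficient mRNA Lin28b took the third place, at 1.19 times Zcchc6, which was at 1.27 times Dis3l2. In long RNA Lin28b, Zcchc6 and Dis3l2 followed in this order in both libraries, with Lin28b at 1.08 times Zcchc6 in wild-type and 1.34 times in Drosha-deficient cells. With no replicate, whether such neighbours differ beyond the spread between libraries cannot be said. Lin28a was above 88.1% of the measured rows in wild-type mRNA and Lin28b, the lowest member there, above 48.4%, so the group spans from common to average levels.

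The fractions were set side by side by their differences only, since the tables were normalized separately. For every member the log2 difference was lower in long RNA than in mRNA, by amounts from -0.08 for Dis3l2 and -0.17 for Zcchc6 to -0.50 for Zcchc11 and -0.69 for Lin28a, with Lin28b at -0.21. Among 13322 rows measured in both, 58.3% were lower in long RNA too, with a median of -0.07 and a 10th percentile of -0.51. Lin28a thus lay outside the central span, with 5.33% of rows below it, and Zcchc11 near its edge, with 10.5% below. The value of Zcchc11 sets a row of its own against the joint row. The values of Lin28b, Zcchc6 and Dis3l2 were within the ordinary range.

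In the authors' deposited table none of the members' rows is marked as significant in any fraction, where 19 rows are in mRNA, 19 in long RNA and 85 in short RNA. The lowest p-value of a member in the authors' deposited table was 0.136, for Lin28a in long RNA, with a q-value of 0.9997. These values compare the reads of 2 libraries and not the genotypes.

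The let-7 products on the other side of the loop were lower in short RNA. All 4 let-7 genes with a row of their own were called lower and are listed at 0 in Drosha-deficient cells, against 18.4% of all 2597 measured rows called lower and 14.8% called higher. In wild-type cells Mirlet7i stood at 685 FPKM, Mirlet7b at 193 FPKM, Mirlet7c-2 at 36.2 FPKM and Mirlet7a-1 at 14.5 FPKM. By estimate 1 fragment on 1 kb gave 0.378 FPKM in that library, and 1 fragment on a locus as short as a hairpin gives far more. The values of Mirlet7c-2 and above all of Mirlet7a-1 thus rest on few fragments, and their loss is less firmly measured. Both hairpins with GGAG in the loop (Mirlet7i and Mirlet7a-1) and both without it (Mirlet7b and Mirlet7c-2) had values above 0 in wild-type cells. The highest and the lowest value belonged to hairpins with the motif, the lowest at this low depth. A joint row of Mir100 and Mirlet7a-2 with long noncoding RNAs went from 2131 to 10.3 FPKM, and its share of let-7 is not known. Mature microRNAs of near-identical sequence share reads, so the values of single genes are uncertain. The row of Mirlet7i had 3.66 against 1.43 FPKM in mRNA (log2 difference -0.94, not called). In long RNA it had 4.63 against 5.23 FPKM (0.15, not called), so the directions were opposite. The row of Mirlet7a-1 was listed at 0 in wild-type and at 2.05 FPKM in Drosha-deficient long RNA, and was called higher there (1.61). With loci this short such values rest on very few fragments.

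**Figure D3:**
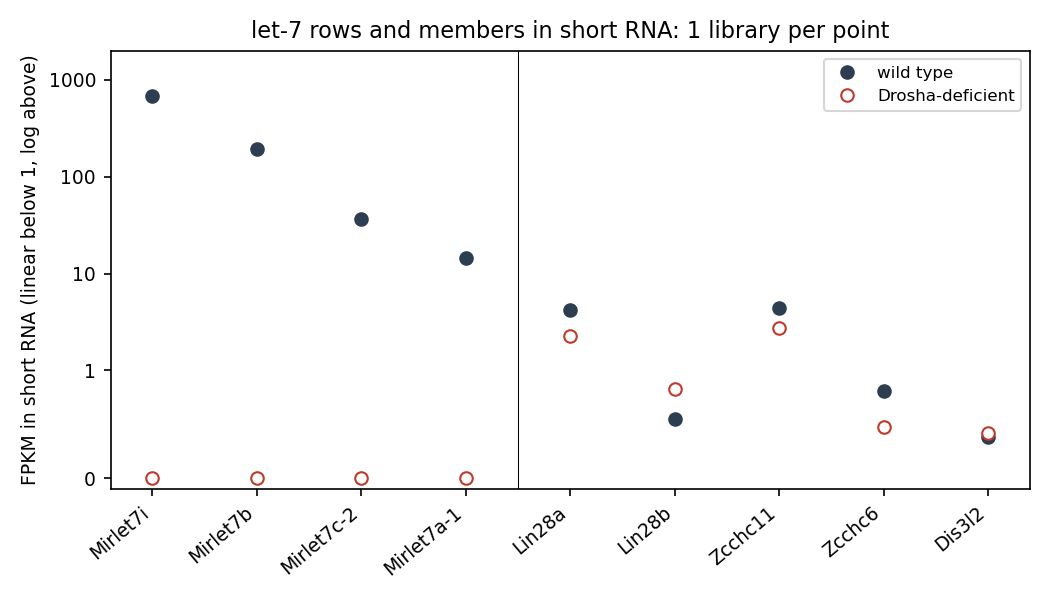
FPKM in short RNA (y axis, linear below 1 and logarithmic above) of the 4 let-7 rows, left of the line, and of the 5 members, right of it, in wild-type (filled) and Drosha-deficient cells (open), 1 library per point. The let-7 rows lie between 14.5 and 685 FPKM in wild-type cells and at 0 in Drosha-deficient cells, while the members' values lie at or below 4.37 FPKM in both.

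Related genes were described by lists. Of 9 measured terminal nucleotidyltransferases and poly(A) polymerases other than the members, none was called in mRNA or in long RNA. Their median log2 difference was 0.29 in mRNA, with 7 of 9 above 0, beside 0.01 over all rows, and 0.05 in long RNA, beside -0.04. Tut1, which adds uridines to U6 small nuclear RNA, had the largest difference of the list, at 13.3 against 24.5 FPKM in mRNA and 8.65 against 16.2 FPKM in long RNA, 1.85 and 1.88 times the wild-type value. The most abundant was Papola, the canonical poly(A) polymerase, at 94.7 against 106 FPKM in mRNA.

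The list of RNA decay from the 3′ end and related steps includes the exosome and the DIS3L2 relatives Dis3 and Dis3l. It also holds Xrn1 and Xrn2, which degrade RNA from the other end. None of its 23 measured genes was called in either fraction. Their medians were -0.02 in mRNA and -0.05 in long RNA, close to those of all rows. Exosc8, a subunit of the exosome ring, was the most abundant in wild-type mRNA and had the largest difference there, at 117 against 65.0 FPKM (log2 difference -0.84), beside 54.5 against 44.2 FPKM in long RNA (-0.30). In long RNA the largest difference was that of Usb1, an exonuclease that trims U6 small nuclear RNA, at 8.90 against 4.61 FPKM (-0.82).

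Among 26 measured genes that process let-7 precursors or bind them or LIN28, 3 were called higher and 1 lower in mRNA, with a median of 0.19, beside 8.64% and 7.93% of all rows. In long RNA, 1 of 25 was called in each direction, beside 6.26% and 6.89%, and the median was 0.02. These counts are near the background. The lower one was Drosha in both fractions. Dgcr8, the partner of Drosha, was higher in both, at 12.4 against 73.5 FPKM in mRNA. Both other genes were higher in mRNA and not called in long RNA: Trim71, a developmental regulator and let-7 target, had 26.1 against 70.0 FPKM in mRNA and 41.9 against 62.3 FPKM in long RNA, and Igf2bp1, an RNA-binding protein that is also a let-7 target, had 57.6 against 119 FPKM in mRNA and 71.3 against 81.3 FPKM in long RNA. The mRNA call of Igf2bp1 (log2 difference 1.03) was marginal. It was lost with a pseudocount of 5 (0.98) and with scaling to the 75th percentile (0.97). Igf2bp2 and Igf2bp3, of the same family, were not called, at 39.5 against 44.3 and 14.2 against 13.9 FPKM in mRNA. Whether let-7 has a part in any of these values was not tested. Ddx5, a helicase of the Drosha complex, was the most abundant of the list, at 221 against 262 FPKM in mRNA.

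**Figure D4:**
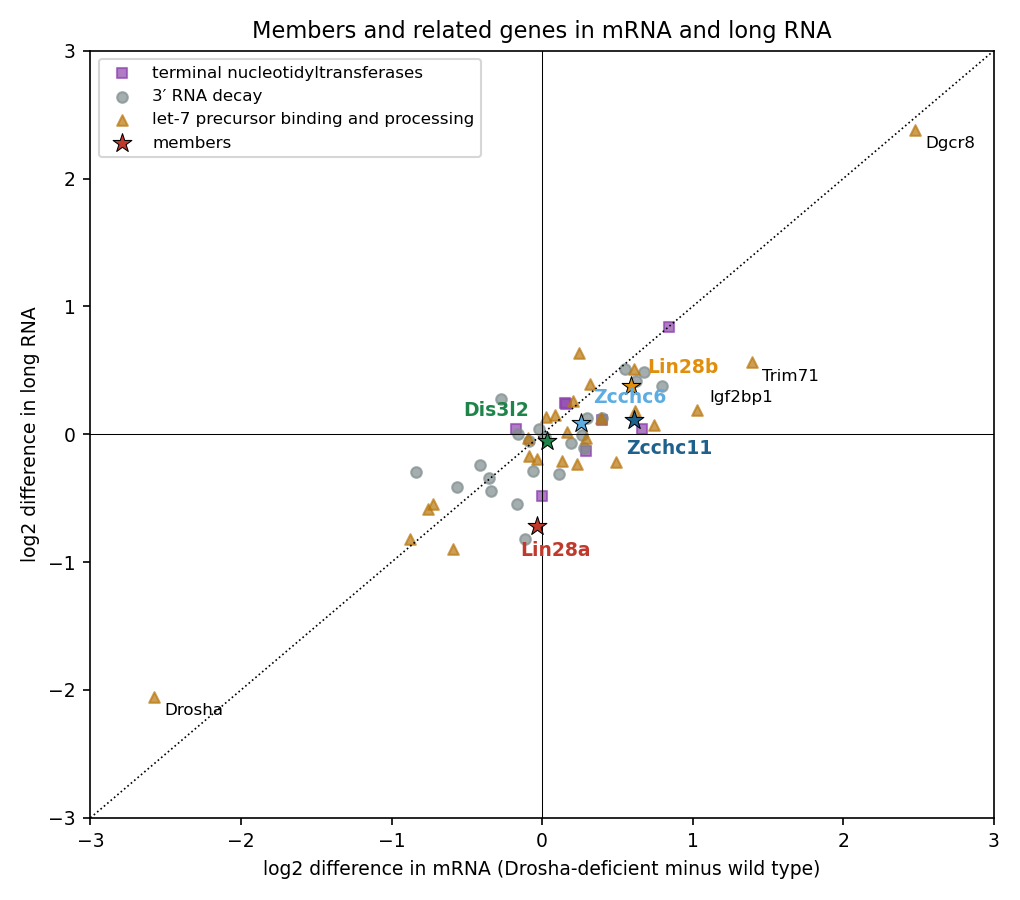
Log2 difference (Drosha-deficient minus wild type) in mRNA (x axis) and long RNA (y axis) of the members (stars) and of the genes of 3 related lists measured in both, each point 1 gene; the dotted line marks equal differences. The members lie near the centre with most listed genes, Lin28a (-0.03, -0.72) below the line, while Drosha and Dgcr8 (2.47, 2.38) lie far out.

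The genes with the pattern nearest to each member were found by Euclidean distance over its 4 values of log2(FPKM + 1) in mRNA and long RNA, among 12991 genes. Nearest to Lin28a were Gja1, the gap junction protein connexin 43, at a distance of 0.33, Mars, the methionine transfer RNA synthetase, at 0.34, and Fbxo5, an inhibitor of the anaphase-promoting complex, at 0.35. Gja1 had 68.6 against 60.6 FPKM in mRNA and 51.6 against 32.3 FPKM in long RNA. Nearest to Lin28b were Atp2b1, a calcium pump of the plasma membrane (0.14), and Rspry1 (0.15). Zcchc11, with the shared row in long RNA, was nearest to Dhx32 (0.11), Zcchc6 to Arl5a (0.12) and Dis3l2 to Cdk5rap1 (0.08). Lin28a had the most distant nearest neighbour of the 5, and the likeness rests on 4 libraries only.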

How the data were processed

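The authors deposited 3 tables of FPKM per gene, whose value columns are, per the file headers, wild type and then Drosha-deficient. The tools named in the submitters' processing notes are TopHat2 2.0.10, bcl2fastq 1.8.4, Cuffdiff and Cufflinks 2.1.1, with mm10/GRCm38 as the build. Annotation, strand setting and scaling are not stated there. The log2 fold change, p-value and q-value in the authors' deposited tables are Cuffdiff's.

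Here each difference was taken on the log2 scale after adding 1 FPKM to both values, Drosha-deficient minus wild type, which understates differences of low genes. Rows with status OK and at least 1 FPKM in 1 library were measured, and a 2-fold difference on this scale was called. FPKM are not counts and each group holds 1 library, so no test was run. Fold values of single genes are FPKM ratios without the pseudocount. Depth was estimated from the FPKM that 1 fragment gives to pseudogene rows of 400 to 3000 bases, and no interval was derived from it. The calling steps were run on simulated data, which checks the code and not whether a call would recur in replicate libraries. Named were the members, called list genes, and each list's most abundant and most different gene. Members and lists were chosen with earlier results of these data known. Python 3.11.15 with pandas 2.3.3 was used.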

Additional observations from a re-analysis of the deposited data

Results flagged for a closer look

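Zcchc11 differed in opposite directions in 2 fractions, with a log2 difference of 0.61 in mRNA and of -0.53 in short RNA. The difference between fractions was not tested, since each rests on 1 library per genotype, and the short RNA values rest on about 11.5 and 8.05 fragments per kb.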

How the results depend on the processing

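No paired analysis was possible because each group held 1 library. No member was called under another pseudocount, minimum level or scaling. With a 1.5-fold threshold 2 members were higher in mRNA (Lin28b and Zcchc11), 1 was lower in long RNA and 1 in short RNA (Lin28a in both), where 19.0% of mRNA rows were higher, and 17.3% of long RNA and 28.1% of short RNA rows lower. At that threshold 2 terminal nucleotidyltransferases were higher in mRNA, and 1 was higher and 1 lower in long RNA; 3 decay genes were higher and 1 lower in mRNA and 1 lower in long RNA; 6 precursor-binding genes were higher and 5 lower in mRNA, and 2 and 4 in long RNA; 1 let-7 host was higher and 1 lower in mRNA. With a pseudocount of 0.1, 1 nucleotidyltransferase was lower in long RNA, beside 11.4% of all rows, and with one of 5 no let-7 host was (0). The precursor-binding genes called higher in mRNA went from 3 to 2, without Igf2bp1, with a pseudocount of 5 and with scaling to the 75th percentile. Only centring on the median and scaling to the 75th percentile could change a direction. Under these 2 the direction of each member's own row was kept, except that Dis3l2 in mRNA went to -0.03 when scaled to the 75th percentile. Depth limits the short RNA values most.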

Other observations

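Huwe1, Wdr82 and Spaca6, which hold or adjoin let-7 hairpins, were not called in mRNA. They were called lower in short RNA, where 18.4% of all measured rows were. The log2 difference there was far smaller for Wdr82 (-1.20) than for Huwe1 (-7.71) and Spaca6 (-8.17). Another gene of the host list, 2610507I01Rik, was not measured in any fraction. The joint row of Mir100 and Mirlet7a-2 with long noncoding RNAs was called lower in mRNA too, at 2.60 against 0.0621 FPKM. Huwe1, a ubiquitin ligase gene whose locus holds Mir98, Mirlet7f-2 and Mir3113, had 44.3 against 46.7 FPKM in mRNA and 76.4 against 71.2 FPKM in long RNA, and 2477 against 10.9 FPKM in short RNA. Wdr82, whose locus holds Mirlet7g, had 49.6 against 78.2 FPKM in mRNA and 49.9 against 56.2 FPKM in long RNA, and 14.1 against 5.60 FPKM in short RNA. Spaca6 had 3.75 against 1.83 FPKM in mRNA (log2 difference -0.75, not called). It was called lower in long RNA, at 5.80 against 1.31 FPKM, a call that was lost with a pseudocount of 5 (-0.78). In short RNA it stood at 927 against 2.23 FPKM. Its row holds Mir125a and begins 274 bases after Mirlet7e, so no let-7 hairpin lies inside it. Values of such rows are those of the whole row, and which hairpin they come from was not tested.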
